A study of Rattus norvegicus with 12 samples.

Results

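Cytotoxic granule genes and the receptors that mark T cells and natural killer (NK) cells were followed in epididymal adipocytes of stressed and control rats. The group was defined by gene symbol as the array files give it and holds 8 genes, Gzma, Gzmb, Gzmk, Prf1, Nkg7, Klrd1, Cd3e and Cd8a. These are read by 9 probes, out of 30367 probes with 26541 different gene names on the array. The genes were taken up with the CUS against control difference in these same arrays known, so that difference is given for them as a description, with no p-value. Killer lymphocytes store granzymes, which are serine proteases, together with perforin in secretory granules. On contact with a target cell the granule content is released, perforin opens the target membrane and the granzymes that enter cleave proteins and start cell death. In adipose tissue such cells belong to the stromal fraction and not to the adipocytes.

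Chronic unpredictable stress (CUS) was applied to 6 male Fisher 344 rats for 35 days, with 2 stressors on each day drawn in a random order from a set that includes forced swimming, rotation, isolation, crowding, wet bedding, altered lighting and nights without food or water. The 6 control rats, of the same sex and strain, had no stressors and were handled every 2 days for weighing. Total RNA of epididymal adipocytes of each rat was labelled with Cy3 and hybridised to its own 1-colour array. The sample labels name adipocytes as the cell type, while the extraction text names preadipocytes. The values below are log2 spot intensities relative to the 75th percentile of the same array, so 0 stands for a signal at that percentile and a difference of 1 for a 2-fold change. A probe counts as well above background on an array where the scanner software marked at least 50% of its retained spots so.

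Each group filled a slide of its own (6 arrays each), and each slide had its own scan, so slide and group cannot be told apart. The 75th percentile of intensity was 541 to 627 in CUS and 229.8 to 399.8 in control samples, and between 64.7 and 67.0% of probes on CUS arrays and 60.4 and 67.3% on control arrays were well above background. Of the 19728 probes tested (those well above background on 6 arrays or more), 4856 (24.6%) were higher and 5017 (25.4%) lower in CUS at an adjusted p under 0.05 in limma. That split depended on the scaling: 12353 were higher and 476 lower when arrays were scaled on their spike-in controls. The adipocyte genes Adipoq (adiponectin), Fabp4 and Cfd (adipsin) had mean log2 signals of 8.58, 8.48 and 9.38 in CUS and 8.41, 8.10 and 9.77 in control samples.

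The probes are 60 bases long and are shown because they define which stretch of each transcript was measured. They are given 5′ to 3′ as the array files hold them, in lower case throughout, for the genes that carried signal:
Gzma: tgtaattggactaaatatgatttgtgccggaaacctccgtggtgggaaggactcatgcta
Gzmk: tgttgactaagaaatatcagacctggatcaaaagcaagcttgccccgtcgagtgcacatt
Gzmb: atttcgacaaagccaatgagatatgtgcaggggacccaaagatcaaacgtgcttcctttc
Prf1: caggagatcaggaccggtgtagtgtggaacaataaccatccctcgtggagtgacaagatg
Nkg7: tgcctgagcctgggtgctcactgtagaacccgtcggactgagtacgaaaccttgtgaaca
Their positions on rat build rn4, the build of the array design, are chr2:44490165-44490224 (minus strand) for Gzma, chr2:44589378-44589437 (minus strand) for Gzmk, chr15:35196479-35196538 (minus strand) for Gzmb, chr20:28663319-28663378 (plus strand) for Prf1 and chr1:93813978-93814037 (plus strand) for Nkg7. Gzmb had 2 probes. The one shown is called probe A, and probe B lies on the same strand at chr15:35195450-35195509. Gzma and Gzmk were each printed in 10 spots and the other probes in 2 spots. No stretch longer than 7 bases was shared by any of the 35 pairs of probes from different genes of the group.

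Granzymes A, B and K and perforin had higher signal in CUS samples on every array than on any control array. Gzma, measured on nearly all arrays, differed by 1.88 on the log2 scale. For Gzmk, Prf1 and both Gzmb probes at most 1 control array was well above background, so the size of their differences rests on control signals near the limit of measurement. Nkg7 did not separate the groups, and the receptor genes were at or near background. In all, 5 of the 9 probes (those of 4 genes) did not overlap between the groups, all 5 with CUS higher. Over all 30367 probes 6.97% did not overlap with CUS higher and 23.7% with CUS lower. In the fit, 6 probes of 5 genes were tested. Gzmk and probe A of Gzmb entered it through the CUS arrays only, since neither was well above background on any control array. These RNA samples hold many cells, and more cells of a type and more RNA per cell cannot be told apart in them.

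**Figure D1:**
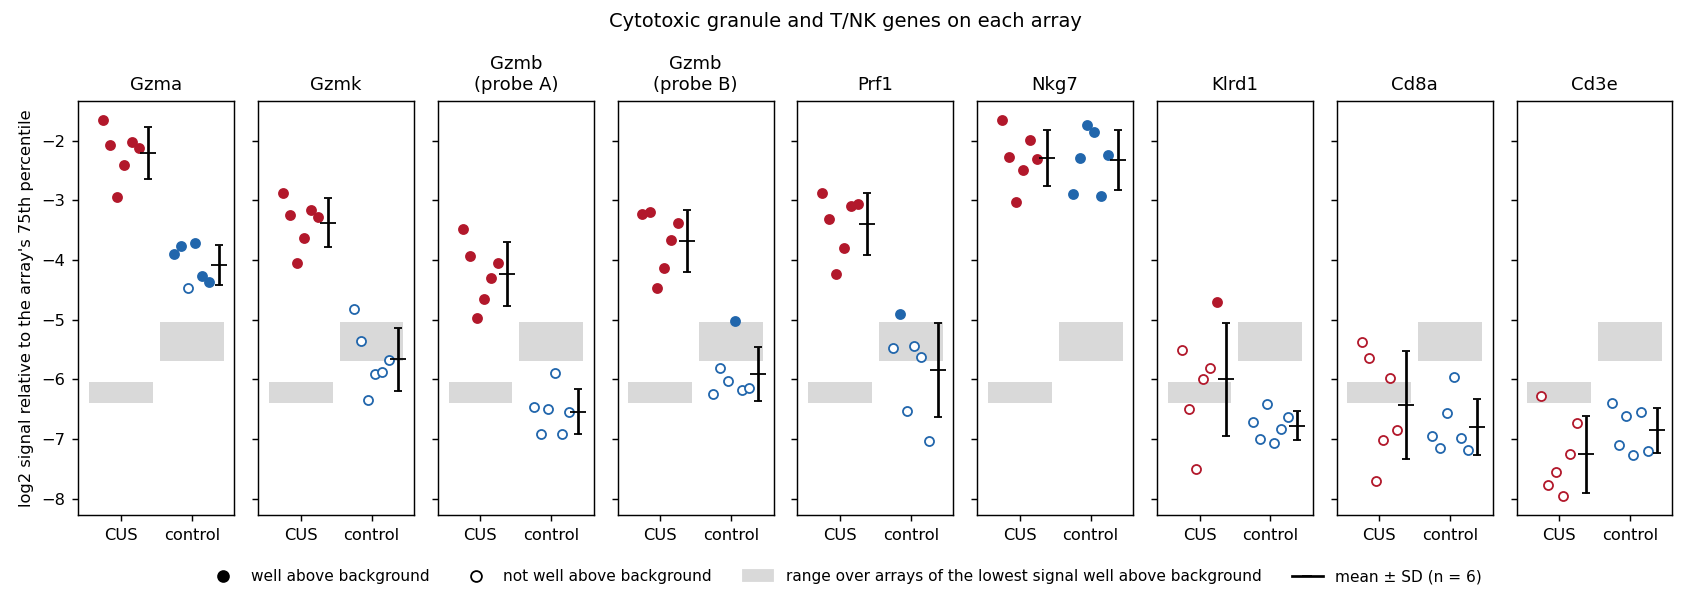
Each point is 1 array (6 CUS in red, 6 control in blue), as the log2 signal relative to the array's 75th percentile, in 1 panel per probe. Filled points were well above background, bars are mean ± SD over 6 arrays, and the grey band is the range over arrays of the lowest signal that was well above background. Gzma, Gzmk, both Gzmb probes and Prf1 separate the groups, and Nkg7 overlaps. Cd3e lies at or below the band on every array. Klrd1 and Cd8a lie below it on every control array but above it on several CUS arrays, up to -4.71 and -5.37. Of these receptor points only Klrd1 in CUS replicate 6 was well above background, by 1 of its 2 spots.

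Gzma encodes granzyme A, a protease that cleaves after basic residues. Its intensity was 70.7 at the lowest, 128.9 at the median and 173.0 at the highest of the CUS arrays, against 10.3, 19.9 and 29.5 on the control arrays. On the log2 scale CUS arrays ranged over -2.95 to -1.65 and control arrays over -4.47 to -3.71. The lowest CUS array, replicate 3, was thus above the highest control array. The means were -2.20 ± 0.44 in CUS and -4.08 ± 0.33 in control samples (SD, n = 6 each), a difference of 1.88 (SE 0.21) or 3.68-fold. Gzma was well above background on 6 CUS and 5 control arrays, so the signal of nearly all control samples was measured rather than bounded.

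Gzmk encodes granzyme K, a close relative of granzyme A. The Gzmk gene adjoins Gzma on chromosome 2, with 0 annotated genes between them. Its intensity was 33.0, 57.5 and 73.5 (lowest, median and highest) on CUS arrays and 2.82, 6.85 and 10.72 on control arrays. Mean log2 signals were -3.38 ± 0.41 in CUS and -5.66 ± 0.52 in control samples, which differ by 2.29 (SE 0.25). All 6 CUS arrays and 0 control arrays were well above background. Because no control array was well above background, a floored fold is also given, which was 3.89 for Gzmk, higher in CUS. For it the mean of the brighter group is set against a floored mean of the dimmer group. Each array of the dimmer group enters that mean with the larger of its own signal and its lowest signal well above background. Floored folds are not strict lower bounds, since that lowest signal is not a detection limit. Gzmk was at -4.825 on control replicate 1, above that array's lowest marked signal of -5.44, yet was not well above background. With normexp, a background correction described below, and an offset of 1 the Gzmk difference was 1.27, less than a 3.89-fold change.

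Gzmb encodes granzyme B, which cleaves after aspartate and activates caspases. Probe A gave intensities of 17.3, 31.8 and 48.9 (lowest, median and highest) on CUS arrays and 2.54, 3.37 and 5.63 on control arrays. Its mean log2 signal was -4.23 ± 0.54 in CUS and -6.54 ± 0.37 in control samples. The difference was 2.31 (SE 0.24), and with 6 CUS and 0 control arrays well above background the floored fold was 2.38. Probe B gave intensities of 24.6, 49.9 and 58.8 on CUS arrays and 3.52, 5.23 and 10.2 on control arrays. The difference for probe B was 2.22 (SE 0.26), with means of -3.68 ± 0.52 in CUS and -5.90 ± 0.45 in control samples and 6 CUS and 1 control array well above background. The control signals of both Gzmb probes were thus at or near background, and the differences are not compared with each other.

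Prf1 encodes perforin, the pore-forming protein of the granule. Its intensity was 28.9, 60.6 and 74.2 (lowest, median and highest) on CUS arrays and 2.48, 7.23 and 13.3 on control arrays. Mean log2 signals of -3.40 ± 0.52 in CUS and -5.84 ± 0.79 in control samples gave a difference of 2.44 (SE 0.35). The control samples were spread widely, with replicates 3 and 6 at -6.53 and -7.03 and the others between -5.62 and -4.91, and only replicate 2 was well above background. The lowest CUS array, replicate 3, was at -4.24 and so still above the highest control array.

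Nkg7 encodes a granule membrane protein of NK and cytotoxic T cells. Unlike the genes above it was well above background on all 12 arrays, and its signal did not differ beyond the spread between arrays. Its intensity was 66.7, 112.8 and 173.1 (lowest, median and highest) on CUS arrays and 40.8, 73.5 and 92.0 on control arrays. On the log2 scale the means were -2.29 ± 0.47 in CUS and -2.33 ± 0.50 in control samples, a difference of 0.041 (SE 0.26). The groups overlapped over nearly their whole range, at -3.03 to -1.65 in CUS and -2.94 to -1.74 in control samples. That difference moved with the scaling, to 0.82 with no scaling and 0.86 with scaling on spike-ins. The median of all tested probes was 0.76 and 0.80 under these scalings.

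The surface receptors carried little signal in either group. Klrd1 (CD94, the partner chain of the NKG2 receptors) was well above background on 1 CUS array, replicate 6, and 0 control arrays, with means of -6.00 ± 0.94 in CUS and -6.78 ± 0.24 in control samples. Cd8a, a chain of the CD8 co-receptor of cytotoxic T cells, was well above background on 0 of 12 arrays and averaged -6.43 ± 0.90 in CUS and -6.80 ± 0.47 in control samples. Cd3e, a signalling chain of the T cell receptor complex, was also well above background on 0 of 12 arrays, at -7.26 ± 0.64 in CUS and -6.85 ± 0.38 in control samples. No fold is given for Cd8a and Cd3e, where no array of either group was well above background, although Cd8a reached -5.37 on a CUS array. The lowest signal well above background differed between groups on this scale. It was -6.39 to -6.04 on CUS arrays and -5.69 to -5.04 on control arrays. A transcript of a given relative signal was thus marked as measured more readily in CUS. Of all probes, 1.06% were well above background on 4 or more CUS arrays and on no control array, as Gzmk and probe A of Gzmb were, and 0.501% the other way round.

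Within the CUS group the granule genes varied together from rat to rat. Replicate 1 had the highest and replicate 3 the lowest signal of Gzma, Gzmk, Prf1, Nkg7 and probe A of Gzmb, and Gzma, Gzmk and Nkg7 ranked the 6 rats in the same order. Pairwise correlations were computed for the 5 tested genes (probe B for Gzmb), as 10 pairs in each group and 20 in all, with exact two-sided permutation tests over 6 arrays and Benjamini-Hochberg adjustment over the 20. Among CUS arrays Pearson's r lay between 0.80 and 0.995, and 9 of 10 pairs passed at an adjusted p under 0.05. Gzma and Gzmk had r = 0.995 (exact permutation p = 0.0014, adjusted 0.0093) and Spearman's rho = 1 (exact permutation p = 0.0028, adjusted 0.019). Gzma and Nkg7 had r = 0.98 (exact permutation p = 0.0014, adjusted 0.0093) and rho = 1 (exact permutation p = 0.0028, adjusted 0.019). Without the 2 arrays farthest from the median of Gzma, r was 0.997 for Gzma with Gzmk and 0.85 for Gzma with Nkg7.

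By rank the other CUS pairs did not pass (rho 0.66 to 0.83, adjusted exact permutation p = 0.17 to 0.27). The relations of Gzmb with Gzmk, Prf1 and Nkg7 rested on 2 arrays, since r fell to 0.24, -0.07 and 0.0086 without them. Among control arrays r ranged from -0.65 to 0.83 over the 10 pairs and 0 passed (adjusted exact permutation p = 0.064 to 0.86). Of these, 1 pair (Gzma and Prf1, r = 0.83) had an unadjusted exact permutation p under 0.05, at 0.032. Gzma and Nkg7 had r = -0.07 among control arrays (adjusted exact permutation p = 0.86). Whether the relation differs between the groups was not tested. Gzmk, Gzmb and Prf1 were near background on most control arrays, while Gzma and Nkg7 were not. Control pairs that hold Gzmk, Gzmb or Prf1 therefore cannot show whether these genes vary together there. Only the pair of Gzma and Nkg7 holds none of them.

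**Figure D2:**
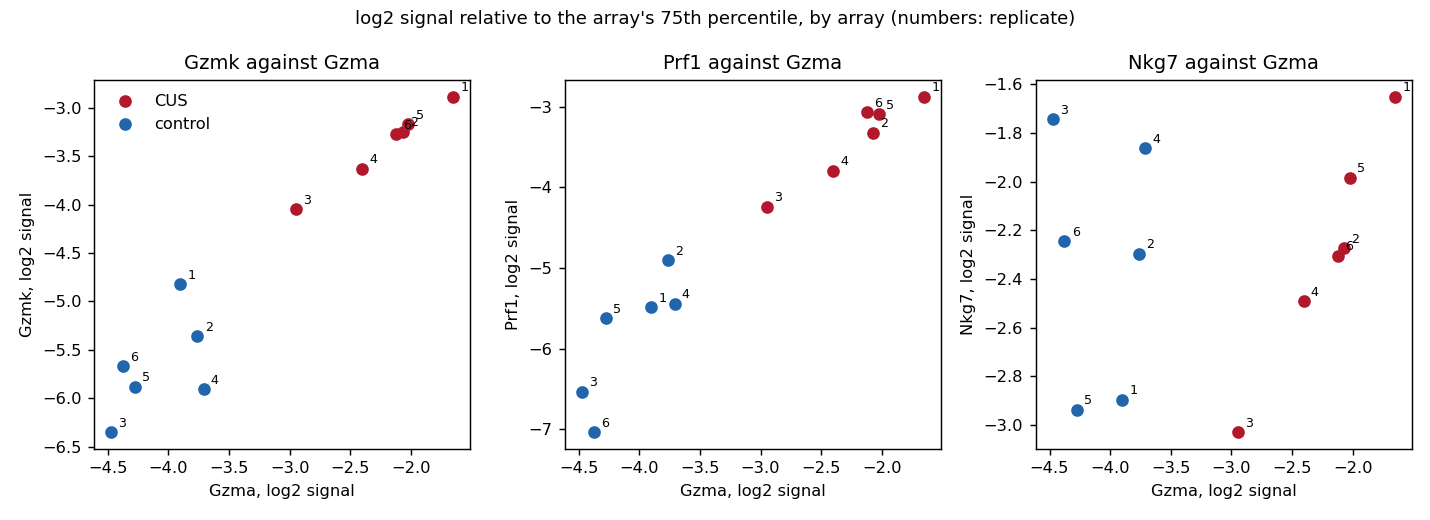
Log2 signal of Gzmk, Prf1 and Nkg7 (y) against that of Gzma (x), relative to each array's 75th percentile; each point is 1 array with its replicate number, CUS in red and control in blue. Among CUS arrays the points lie near a line in each panel (r = 0.995, 0.96 and 0.98), and for Nkg7 the control arrays do not (r = -0.07).

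All tested genes were ranked by how closely they followed Gzma among the CUS arrays. Of 17433 other tested genes, 16 (0.0918%), Nkg7 included, had an r at least as high as that of Nkg7, 52 (0.298%) one at least as high as that of Prf1, 375 (2.15%) one at least as high as that of Gzmb (r = 0.90), and Gzmk had the highest of all. Some genes of other lists, picked after their values were seen, followed Gzma too: Cd3d, Cd3g and Cd247 of the T cell receptor complex with r = 0.92, 0.94 and 0.96, and the endothelial gene Pecam1 with r = 0.83. Other T and NK cell genes did not follow it by the probes used: Cd8b, Klrk1 and Tbx21 had r = -0.27, -0.44 and 0.26. The Klrk1 probe used was at -0.12 in CUS and 0.17 in control samples. A second Klrk1 probe, outside the fit, was at -6.75 and -6.79. The Tbx21 probe was at 6.31 and 6.26, as bright as that of the adipocyte gene Lpl (6.25 and 6.14). Whether these probes read NK cells was not tested. The adipocyte gene Adipoq ran the other way from Gzma (r = -0.62). Over all 12 arrays, with each array taken as its deviation from the mean of its group, the 3 genes most like Gzma were Gzmm (granzyme M, r = 0.95), Il2rb (the shared receptor chain for interleukins 2 and 15, r = 0.94) and Xcl1 (lymphotactin, a chemokine of NK and T cells, r = 0.90). Among these only Gzmm passed the test between groups. Il2rb differed by 0.014 (adjusted p = 0.96, limma) and Xcl1 by 0.42 (adjusted p = 0.13, limma). A second Xcl1 probe, outside the fit, was well above background on 5 CUS and 0 control arrays. It had a floored fold of 1.502, higher in CUS, beside 1.34-fold for the tested probe. Both Xcl1 probes thus had the same direction. For the other genes of the group the most alike genes included few that mark lymphocytes: Ppp1r15a, Wdr86 and Csrnp1 for Gzmk (r 0.94 to 0.95), Tnnt2 and Glyatl3 for Nkg7 (r = 0.94 and 0.92), and transcripts with no established name for Gzmb and Prf1. These are descriptions over 12 arrays that share 2 slides.

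Of 18 other genes of granules and killing, 16 had a probe and 11 were tested, of which 4 passed as higher, 2 passed as lower and 5 did not pass. The median difference of the 11 was 0.43, beside -0.03 over all 17434 tested genes, of which 24.1% were higher and 25.9% lower. Gzmc, a further granzyme of the Gzmb cluster, had log2 signals of -3.74, -2.82 and -2.06 (lowest, median and highest) on CUS arrays and -6.75, -5.47 and -4.83 on control arrays. Gzmc rose with a floored fold of 5.12 (measured difference 2.81, SE 0.35, adjusted p = 7.3e-05, limma). With 6 CUS and 0 control arrays well above background it was tested through the CUS arrays alone, and without it 3 genes of the list passed as higher. The array files list the Gzmb transcript beside that of Gzmc for this probe, and the other 2 Gzmc probes were well above background on 2 and 0 CUS arrays and on 0 control arrays, so the signal cannot be assigned to Gzmc alone.

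Gzmm, which encodes granzyme M, had log2 signals of -2.74, -1.94 and -1.46 on CUS arrays and -3.90, -3.23 and -2.86 on control arrays. It was well above background on all 12 arrays, did not overlap between groups and rose by 1.26 (SE 0.24, adjusted p = 0.0011, limma). Lamp1, a lysosome and granule membrane protein made by all cells, rose by 0.82 (SE 0.16, adjusted p = 0.0013, limma). Unc13d, which primes granules for fusion, fell by 1.09 (SE 0.22, adjusted p = 0.0018, limma), and Stxbp2 rose while Cst7, an inhibitor of granule cathepsins, fell (0.60 and -0.57). The granule proteoglycan Srgn and the granzyme-activating protease Ctsc did not pass, at -0.43 and -0.19 (adjusted p = 0.30 and 0.54, limma). Ifng, the interferon of killer cells, was well above background on 0 of 12 arrays. Faslg, the Fas ligand, was so on 4 CUS and 0 control arrays and is named here after its values were seen.

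No other T cell gene passed as higher with the 75th percentile scaling, but some did under the other scalings. Among 28 other T cell genes 27 had a probe and 15 were tested, of which 0 passed as higher, 3 passed as lower and 12 did not pass, with a median difference of -0.040. After quantile normalisation 3 of the 15 passed as higher, and 8 did so with no scaling or with scaling on spike-ins. Beside this, of all 19728 tested probes 5512 passed as higher after quantile normalisation, 13382 with no scaling and 12353 on spike-ins. Cd3d and Cd3g, the partner chains of Cd3e, differed by -0.035 and 0.59 (adjusted p = 0.84 and 0.16, limma), Cd247 (the zeta chain) by 0.34 (adjusted p = 0.39), and Cd8b by 0.035 (adjusted p = 0.87). These 4 are named after their values were seen. Foxp3, the factor of regulatory T cells, fell by 1.00 (SE 0.15, adjusted p = 2.4e-04, limma), with log2 signals of -5.02 to -4.50 in CUS and -4.20 to -3.38 in control samples. Ubash3a and Tcf7 fell by 0.58 and 0.59 (adjusted p = 3.5e-04 and 0.047, limma), but their differences turned to 0.20 and 0.18 with no scaling. Cd6, the brightest of the list, differed by -0.12 (adjusted p = 0.40, limma). It passed as higher with no scaling (0.65, adjusted p = 2.5e-04, limma) and on spike-ins (0.69, adjusted p = 0.011, limma). The median of all tested probes was 0.76 and 0.80 under these scalings. Cd27, a costimulatory receptor named after its values were seen, was well above background on 4 CUS and 0 control arrays. On 9 of the 27 genes no array was well above background.

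Among other NK cell genes none passed as higher with the 75th percentile scaling either. Of 28 genes, 26 had a probe and 8 were tested. Of these, 0 passed as higher, 2 passed as lower and 6 did not pass, and the median difference was -0.077. After quantile normalisation 1 of the 8 passed as higher, with no scaling 4 and on spike-ins 5. Klrc3, a gene of the NKG2 receptor family, fell by 1.27 (SE 0.27, adjusted p = 0.0025, limma), and the Fc receptor gene Fcgr3a fell by 0.75 (SE 0.24, adjusted p = 0.020, limma), though Fcgr3a turned to 0.027 with no scaling. Tbx21, the factor T-bet, was the brightest of the list by its probe and differed by 0.047 (adjusted p = 0.84, limma). It passed as higher with no scaling (0.82, adjusted p = 0.0011, limma) and on spike-ins (0.86, adjusted p = 0.0036, limma). The median of all tested probes was 0.76 and 0.80 under these scalings. The NK receptor gene Ncr1 was well above background on 0 CUS and 1 control array. Klre1 and Klrb1a, named after their values were seen, were well above background on 5 and 4 CUS arrays and on 0 control arrays. The floored fold of Klre1 was 1.26, higher in CUS. Beside these genes 11 of the 26 were on no array well above background.

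Among 30 lymphocyte cytokine receptors, chemokines and homing genes, 28 had a probe and 18 were tested, of which 3 passed as higher, 7 passed as lower and 8 did not pass (median -0.24). Ccl5 (RANTES), a chemokine that T and NK cells release with their granules, had log2 signals of -0.20, 0.53 and 0.86 on CUS arrays and -2.35, -1.61 and -0.94 on control arrays. It rose by 1.97 (SE 0.26, adjusted p = 1.0e-04, limma) with no overlap. Prdm1, the factor Blimp-1, rose by 1.10 (SE 0.37, adjusted p = 0.027, limma), and its call was lost without CUS replicate 1 (adjusted p = 0.053), CUS replicate 5 (adjusted p = 0.057) or control replicate 2 (adjusted p = 0.052, limma). Itga4 (integrin alpha 4) fell by 1.32 (SE 0.27, adjusted p = 0.0017, limma), Il2rg (the common gamma chain) by 0.59 (SE 0.11, adjusted p = 9.0e-04) and Il7r by 1.08 (SE 0.30, adjusted p = 0.010). A second Il7r probe gave 0.39 (adjusted p = 0.43, limma), so the probes of Il7r disagree. The call of Il7r was also lost after quantile normalisation (adjusted p = 0.061), in the authors' table (adjusted p = 0.062), with no scaling (adjusted p = 0.43) and on spike-ins (adjusted p = 0.52, limma), and Il2rg turned to 0.18 with no scaling and 0.22 on spike-ins.

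Over the 4 lists together 52 of 97 genes with a probe were tested, of which 7 were higher and 14 lower. Beside this count, and those of each list above, stand 24.1% higher and 25.9% lower over all 17434 tested genes. The split of the 4 lists turned with the scaling. After quantile normalisation 12 were higher and 9 lower, and with scaling on spike-ins 27 were higher and 0 lower. The counts over all 19728 tested probes moved the same way. They were 5512 higher and 3878 lower after quantile normalisation, and 12353 and 476 on spike-ins. Gzmm, Lamp1 and Ccl5 passed as higher under every alternative in which they were tested. The falls of Foxp3, Unc13d, Klrc3 and Itga4 did not pass with no scaling or with scaling on spike-ins (adjusted p = 0.15 to 0.53, limma).

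**Figure D3:**
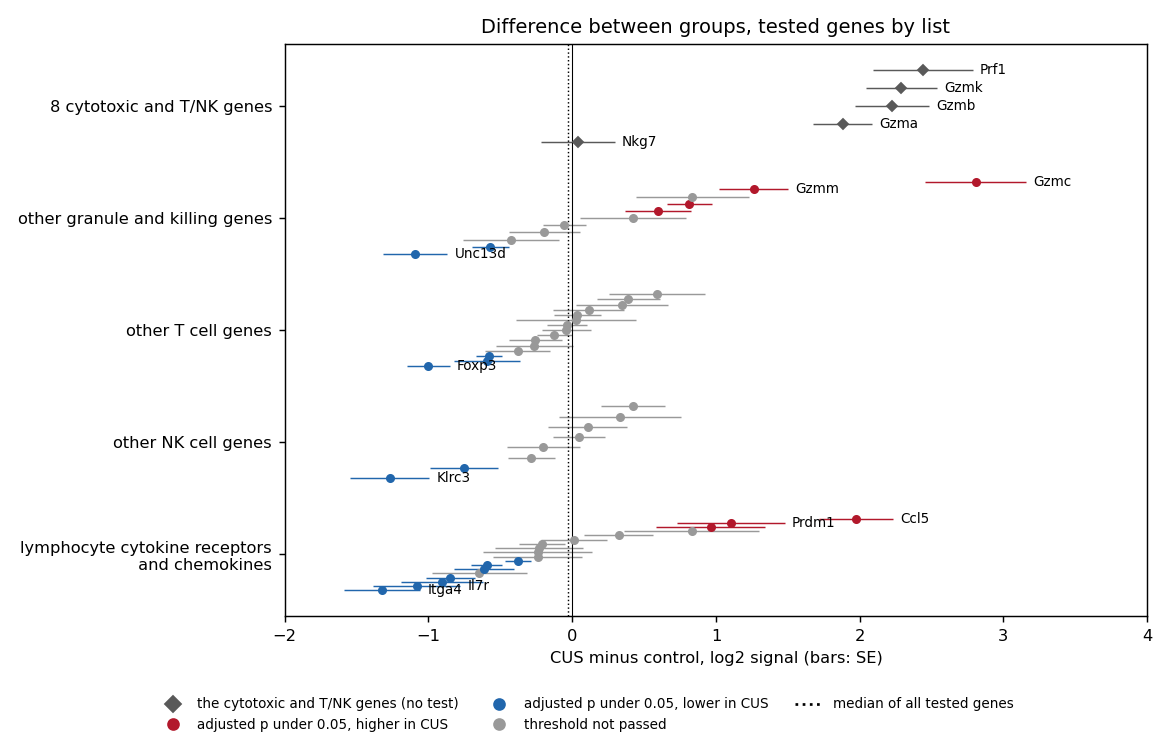
Difference of CUS minus control in log2 signal (x, bars are SE) for each tested gene, by list. The 5 tested cytotoxic and T/NK genes (grey diamonds, no test) stand at 0.041 to 2.44 in measured signal; in the lists below, red and blue points passed an adjusted p of 0.05 as higher (7 genes) and lower (14 genes) in CUS, and the dotted line is the median of all tested genes.

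Gzmb lies at the end of a protease cluster on chromosome 15 that runs from the mast cell chymase gene Cma1 through mast cell proteases to Gzmc and Gzmb, 55 annotated genes long, of which 14 had probes here. Cma1 differed by 4.39 (adjusted p = 3.9e-06, limma) and Mcpt8 and Mcpt9 by 2.18 and 2.46. Mcpt10 was well above background on 6 CUS and 0 control arrays, with a floored fold of 2.39, higher in CUS. Gzmf, Ctsg, Mcpt3 and Mcpt4 were on no array well above background.

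Markers of other cell types were counted in the same arrays. Over all 17434 tested genes 24.1% were higher and 25.9% lower, so a count near these shares says little about a cell type. Of 10 tested mast cell markers 8 passed as higher and 1 as lower, with a list mean of -3.09 to -1.74 on CUS arrays and -5.00 to -4.65 on control arrays. Of the 8, Fcer1a, Ms4a2 and Mcpt1 were well above background on no control array and were tested through the CUS arrays alone. Mcpt1 is a current symbol here, for a probe that the array annotation calls Mcpt2. The probe called Mcpt1 there was well above background on 0 CUS and 0 control arrays. Of 7 tested red blood cell markers 7 passed as higher, with a list mean of 5.42 to 6.20 on CUS arrays and 0.45 to 1.45 on control arrays. Macrophage and dendritic cell markers were higher for 4 of 11 tested genes and lower for 0. A second probe of Csf1r, one of the 4, fell by 1.25 (adjusted p = 6.8e-06, limma) where the counted probe rose by 1.25, so that gene has no settled direction. Neutrophil markers were higher for 2 and lower for 1 of 5. Endothelial markers were lower for 6 of 10 and stromal markers for 4 of 7, with 0 higher in either list. Of adipocyte markers 3 were higher and 2 lower of 10. Of B cell markers 2 of 3 tested were lower, and 5 of 9 with a probe were on no array well above background. The part of these cell types in the granzyme and perforin values was not tested.

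The stretch before the start of each gene is shown for the 5 genes with signal, because 4 of them were higher in CUS with no overlap between the groups. The sequences are those of RefSeq on build GRCr8, where 7 of the 8 genes were matched; each is the 250 bases before the annotated start, 5′ to 3′ on the strand of the gene. Capitals mark matches on either strand to 6 motifs:
Gzma (chr2:46485697-46485946, minus strand): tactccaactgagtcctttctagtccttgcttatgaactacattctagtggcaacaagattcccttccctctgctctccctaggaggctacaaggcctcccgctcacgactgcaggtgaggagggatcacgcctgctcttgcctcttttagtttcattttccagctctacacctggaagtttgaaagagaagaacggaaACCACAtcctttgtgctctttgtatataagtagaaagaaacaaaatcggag
Gzmk (chr2:46582016-46582265, minus strand): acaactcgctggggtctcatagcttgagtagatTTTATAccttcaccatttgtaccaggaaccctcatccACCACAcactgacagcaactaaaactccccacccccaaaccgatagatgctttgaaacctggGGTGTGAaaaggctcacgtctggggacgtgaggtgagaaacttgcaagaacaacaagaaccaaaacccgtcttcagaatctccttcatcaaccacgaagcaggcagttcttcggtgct
Gzmb (chr15:34462470-34462719, minus strand): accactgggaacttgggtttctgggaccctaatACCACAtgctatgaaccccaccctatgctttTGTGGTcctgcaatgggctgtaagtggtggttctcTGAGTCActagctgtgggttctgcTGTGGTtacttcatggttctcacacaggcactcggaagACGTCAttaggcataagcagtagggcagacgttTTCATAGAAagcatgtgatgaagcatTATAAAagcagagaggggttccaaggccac
Prf1 (chr20:29788790-29789039, plus strand): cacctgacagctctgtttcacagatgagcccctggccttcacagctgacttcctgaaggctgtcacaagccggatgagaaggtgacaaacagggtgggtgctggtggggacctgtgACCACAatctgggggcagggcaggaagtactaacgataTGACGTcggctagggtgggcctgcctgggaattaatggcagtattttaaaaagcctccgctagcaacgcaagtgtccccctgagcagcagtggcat
Nkg7 (chr1:102981247-102981496, plus strand): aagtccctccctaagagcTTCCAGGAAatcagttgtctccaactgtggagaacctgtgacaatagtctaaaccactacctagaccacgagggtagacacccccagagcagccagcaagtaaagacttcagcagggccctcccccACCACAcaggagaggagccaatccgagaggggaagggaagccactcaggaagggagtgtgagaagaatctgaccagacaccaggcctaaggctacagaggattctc
The motifs were TGTGGT (RUNX), TGACGT (the core of a cAMP response element), TGANTCA (AP-1), GGTGTGA (T-box), TATAAA (bound by TBP) and TTCNNNGAA (STAT). They occur in 14.5, 6.95, 6.34, 3.22, 12.9 and 7.67% of all 33469 promoters of the same length. The RUNX letters were in 5 of these 5 promoters, the Nkg7 promoter included, with 3 matches before Gzmb, and in neither of those of Cd3e and Cd8a. The T-box letters were found 118 bases before the start of Gzmk, the TBP letters 30 bases before that of Gzmb, and the cAMP element letters 89, 96 and 53 bases before those of Gzmb, Prf1 and Cd3e. A match is a description of these letters only.

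The size of the differences, though not their direction for most probes, moved with the background correction. Under quantile normalisation, the authors' own normalised table, no scaling or scaling on spike-ins, Gzma, Gzmk, Gzmb and Prf1 differed by 2.15 to 3.25. With normexp, a model-based background correction, followed by an offset of 50, which is more than any control intensity of Gzma, Gzmk, Gzmb and Prf1, the differences were 0.54 for Gzma, 0.14 for Gzmk, 0.15 for Prf1 and 0.031 for probe B of Gzmb, and that of probe A turned to -0.092. With an offset of 1, an alternative chosen after seeing the data, they were 1.43 for Gzma, 1.27 for Gzmk, 1.31 for Prf1, and 1.19 and 1.12 for the Gzmb probes. Leaving out each array in turn kept Gzma between 1.77 and 2.03, Gzmk between 2.15 and 2.46, Prf1 between 2.20 and 2.62, and the Gzmb probes between 2.13 and 2.46.

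**Figure D4:**
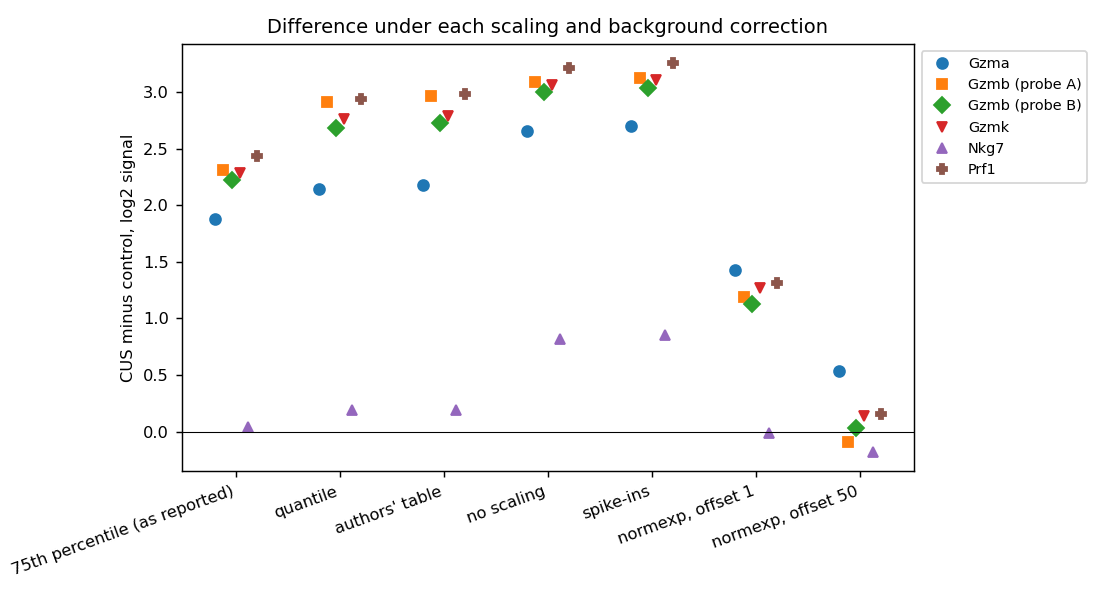
Difference of CUS minus control in log2 signal (y) for the 6 tested probes under 7 scalings and background corrections (x). Gzma, Gzmk, Gzmb and Prf1 lie above 1 under all settings but normexp with an offset of 50, where they lie between -0.092 and 0.54, and Nkg7 lies between -0.18 and 0.86.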

How the data were processed

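The deposited spot intensities are scanner output, in which Agilent Feature Extraction (10.7.3.1, per the file headers) had subtracted background, removed spatial trends and set surrogate values for signals not above background. The deposited intensities are not normalised between arrays. The authors also deposited a table of quantile normalised intensities on a linear scale, used as an alternative. The study's methods name an exon array, while the deposited arrays carry gene expression probes.

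Outlier spots were left out, spots of a probe averaged, and log2 intensities set relative to each array's 75th percentile, taken without control spots. Probes that 6 or more of the 12 arrays marked as well above background were fitted with limma 3.58.1 (R 4.3.3), CUS minus control, two-sided, with no covariate and Benjamini-Hochberg adjustment over all 19728. The fit was tested on simulated data. A gene is read from its brightest tested probe. P-values measure the spread between 6 rats per group.

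The 8 genes and all lists were chosen with earlier results of these data known. Named were all 8 genes, from each lymphocyte list up to 4 passing genes with the largest difference and the brightest gene, from marker lists up to 3 brightest, and for each tested gene the 3 most alike. Promoters came from RefSeq. Alternatives changed scaling, background correction, filter, test, array weights, block and samples.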

Additional observations from a re-analysis of the deposited data

Results flagged for a closer look

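Of 58 sets of 6 values checked (each named probe or list mean in 1 group), 5 held a value far from the others, measured as the gap to its nearest neighbour divided by the range of the 6. Chance gives about 1 in 20. The gap was 0.644 of the range for probe B of Gzmb in control samples, where replicate 4 was high at -5.03. It was 0.684 for Lamp1 in CUS samples, where replicate 1 was low at 3.79. Control replicate 3 was the low one for Itga4 (0.656, at -3.83), for Prdm1 (0.630, at -6.56) and for the mean of the other granule genes (0.647). That array also had the lowest 75th percentile of intensity of the 12, at 229.8. The cause was not tested.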

How the results depend on the processing

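The differences of Gzma, Gzmk, Prf1, Nkg7 and probes A and B of Gzmb are given in that order. They were 2.66, 3.07, 3.22, 0.82, 3.09 and 3.00 with no scaling and 2.70, 3.105, 3.25, 0.86, 3.13 and 3.04 on spike-ins. Gzmk and probe A of Gzmb gave 2.76 and 2.91 after quantile normalisation, and Gzmk and probes A and B 2.79, 2.97 and 2.73 in the authors' table. With normexp and an offset of 50 Gzma, Gzmk, Prf1 and probe B gave 0.54, 0.14, 0.15 and 0.031. With an offset of 1, chosen after seeing the data, Gzma, Gzmk, Prf1 and probes A and B gave 1.43, 1.27, 1.31, 1.19 and 1.12. Of these only Nkg7 was well above background on all 12 arrays. Over all probes the counts were 13382 higher and 729 lower with no scaling and 12353 and 476 with scaling on spike-ins. Counts of lower probes were 8851 with normexp and 12648 with no filter, and leaving out 1 array gave 4225 to 5826 higher and 4361 to 5917 lower.

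In the 4 lymphocyte lists (7 higher, 14 lower) the counts were 12 and 9 after quantile normalisation and in the authors' table, 26 and 0 with no scaling, and 27 and 0 with spike-ins. With no filter they were 11 and 34. Lower genes numbered 27 with normexp and 22 with array weights. Higher genes numbered 4 under the methods' t-test, and leaving out 1 array gave 4 to 7 higher, with 4 without CUS replicate 5 or without control replicate 2, and 12 to 21 lower.

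Directions turned for Tcf7 (0.18 with no scaling, 0.22 with spike-ins), Ubash3a (0.20, 0.24), Cd6 (0.65, 0.69), Fcgr3a (0.027, 0.066) and Il2rg (0.18, 0.22), and with normexp for Prdm1 (-0.14) and probe A of Gzmb (-0.092). No scaling and spike-ins moved the median of all tested probes to 0.76 and 0.80, from -0.019. The call of Tcf7 was lost in 9 of the 12 fits that left out 1 array.

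Replicate numbers give the position on the slide. Deviations of same-numbered arrays correlated at -0.19 to 0.43. No reference from arrays with unlike numbers was computed, so these values cannot settle whether the numbers pair rats. With the replicate number as a block 4970 probes were higher and 5373 lower, the lists had 9 higher and 14 lower, and the call of Fcgr3a was lost (adjusted p = 0.052, limma).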
